A study of Mus musculus with 24 samples.

Results

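The genes described are 10 that mark microglia at rest: the purine receptor genes P2ry12, P2ry13 and P2ry6, the receptor genes Gpr34, Cx3cr1 and Csf1r, the surface protein genes Tmem119 and Siglech, the transcription factor gene Sall1 and the secreted protein gene Olfml3. They were picked by name as known microglia genes, with earlier results of these data known, and all 10 were found among the 21965 genes of the count table and passed the limit of 10 counts summed over 24 libraries. The mice were OL-Ribotag females, in which a tamoxifen-activated Cre puts an HA tag on the ribosomal protein RPL22 of mature oligodendrocytes (OLs). All mice, naive controls included, carried the Cre and the tag allele and received tamoxifen. The 4 conditions were naive tissue and 2, 10 and 42 days post-injury (dpi) after a T9 contusive spinal cord injury (SCI) of 50 kdyn. The sample labels give 10 to 12 weeks of age for all of them, whereas the study's methods put the injury at a younger age and have naive tissue collected along with that of dpi 42. Naive mice were by that account older, and longer past tamoxifen, than those of dpi 2 and dpi 10, so that age and injury cannot be told apart in comparisons of these 2 times with naive tissue. Tissue of 2 mice was pooled, and 3 pools stood for each condition. From every pool came a library of total spinal cord RNA and one of RNA recovered with the tagged ribosomes (called OL here). This Cre is also active in Schwann cells, so the tag can reach nerve root tissue. Microglia carry no tag by this design.

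Microglia are the resident macrophages of the central nervous system. They survive on signals through the receptor CSF1R, which binds CSF1 and IL-34, survey the tissue with fine processes that P2RY12 steers toward ADP, and take up neuronal fractalkine signals through CX3CR1. After injury they lose much of this resting gene programme while monocyte-derived macrophages enter the tissue, and those cells use some of the same genes. Cx3cr1, Csf1r and P2ry6 are shared with monocytes and macrophages, whereas P2ry12, P2ry13, Gpr34, Tmem119, Siglech, Sall1 and Olfml3 are the more restricted of the 10.

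P2ry12 (ENSMUSG00000036353, chromosome 3, 59216272 to 59262871, GRCm38) and P2ry13 (ENSMUSG00000036362, chromosome 3, 59207892 to 59210882) are neighbours on the minus strand, and both lie inside Med12l on the opposite strand, with which P2ry12 shares 9 exon bases and P2ry13 shares 0. Csf1r shares 873 exon bases with Hmgxb3 on the opposite strand. Whether the read counting used strand is not given in the sources used here, so reads on those bases could not be assigned with certainty. Siglech lies on chromosome 7, 55768178 to 55778925, Cx3cr1 on chromosome 9, 119901616 to 120069879, Sall1 on chromosome 8, 89027235 to 89044162, and Olfml3 on chromosome 3, 103722222 to 103738001.

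The promoter table used (RefSeq, GRCm38.p6, 250 bases before to 50 after each start) held 6 of the 10 genes. The windows of 4 of them are shown, those of the neighbouring pair P2ry12 and P2ry13, of Cx3cr1, which rose after SCI, and of Siglech, which had its lowest level at dpi 2. Capitals mark GAGGAA or its reverse complement TTCCTC, the core that the myeloid factor PU.1 (gene Spi1) is known to bind.
P2ry12, chr3:59262936-59263235, minus strand: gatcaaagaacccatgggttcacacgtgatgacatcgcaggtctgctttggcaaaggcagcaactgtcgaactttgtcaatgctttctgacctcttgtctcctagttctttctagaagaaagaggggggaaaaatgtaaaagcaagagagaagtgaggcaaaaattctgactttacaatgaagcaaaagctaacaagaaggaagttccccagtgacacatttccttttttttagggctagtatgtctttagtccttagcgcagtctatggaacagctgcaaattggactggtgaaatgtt
P2ry13, chr3:59210833-59211132, minus strand: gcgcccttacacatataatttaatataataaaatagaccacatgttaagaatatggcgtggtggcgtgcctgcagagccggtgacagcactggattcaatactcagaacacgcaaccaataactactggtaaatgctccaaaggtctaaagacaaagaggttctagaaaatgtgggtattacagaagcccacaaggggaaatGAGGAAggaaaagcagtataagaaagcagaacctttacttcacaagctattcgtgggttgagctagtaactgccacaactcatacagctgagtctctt
Cx3cr1, chr9:120068247-120068546, minus strand: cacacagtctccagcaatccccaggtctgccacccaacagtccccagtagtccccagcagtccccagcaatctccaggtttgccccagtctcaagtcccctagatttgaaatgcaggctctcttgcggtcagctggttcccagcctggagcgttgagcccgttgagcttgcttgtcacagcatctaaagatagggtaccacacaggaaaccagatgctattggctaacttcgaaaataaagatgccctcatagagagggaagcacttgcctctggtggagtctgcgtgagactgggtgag
Siglech, chr7:55767934-55768233, plus strand: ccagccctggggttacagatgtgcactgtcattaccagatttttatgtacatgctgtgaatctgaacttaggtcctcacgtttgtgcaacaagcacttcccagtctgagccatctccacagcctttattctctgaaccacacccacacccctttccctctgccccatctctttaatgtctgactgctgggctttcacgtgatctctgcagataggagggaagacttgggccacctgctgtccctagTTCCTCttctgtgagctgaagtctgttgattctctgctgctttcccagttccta
P2ry13 and Siglech each held 1 such core and the windows of P2ry12, Cx3cr1, Olfml3 and the 3 starts of Sall1 held 0, while 28.3% of 32851 promoter windows of the same length held it on either strand. None held the longer form GAGGAAGT or its reverse complement ACTTCCTC, which 3.2% of all windows held. These matches describe letters only.

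Counts on genes ran from 25840127 to 32987841 per library (median 29062636), so that 3 counts equalled 0.0909 to 0.116 CPM (read counts relative to library size). Both libraries of tissue pool 2 of dpi 2 held 2414 to 2604 counts on 4 Y-linked genes, against at most 13 in the 22 other libraries, although the mice were described as female. Calls that were lost or gained without that pool are named with the results. For 2 libraries of dpi 42 the labels name different kinds of RNA, and their kind was taken from the description. In each of the 4 conditions OL libraries held more of all 10 OL markers than total RNA and less of all 12 pan-myeloid markers. Levels below are CPM after TMM scaling, given for pools 1, 2 and 3 in turn and as mean ± SD (n = 3), and adjusted p-values come from edgeR's quasi-likelihood test with Benjamini-Hochberg adjustment over 17167 genes. The adjusted p-values set differences against the spread between pools of 2 mice, which the main fit estimated for each gene over all 24 libraries, OL and total RNA together. In bulk tissue, fewer cells of a type and less RNA per cell cannot be told apart.

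In naive total RNA, Csf1r had the highest level per length of the 10 genes, 16.8 ± 1.24 CPM per kb of exon. Cx3cr1 (12.1 ± 0.918), P2ry12 (11.7 ± 2.00) and Sall1 (10.9 ± 1.31) followed, and each of these overlapped its neighbour in the order. Tmem119 had 9.40 ± 0.648 CPM per kb. P2ry13 (4.85 ± 0.717), Gpr34 (4.78 ± 0.0686), Olfml3 (3.77 ± 1.02) and Siglech (3.09 ± 0.124) again overlapped from one to the next, and P2ry6 was last with 0.729 ± 0.310 CPM per kb. By dpi 10 the order had changed. Csf1r (86.0 ± 11.7 CPM per kb) and Cx3cr1 (63.5 ± 8.25) were still on top, Olfml3 (31.1 ± 2.83) stood beside Tmem119 (30.3 ± 3.44), and Siglech (4.33 ± 1.01) was last, while P2ry6 (13.8 ± 2.14) overlapped Sall1 (13.1 ± 0.765).

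In total RNA the question was how the resting microglia genes moved while the RNA of pan-myeloid markers rose in the tissue. Of the 10 genes, 5 were higher at dpi 2 than in naive tissue, 7 at dpi 10 and 5 at dpi 42, and 0 were called lower at any of these times. Over all genes tested, 16.4% were called higher and 20.8% lower at dpi 2, 13.9% and 18.2% at dpi 10, and 10.4% and 12.1% at dpi 42. P2ry6, Olfml3, Cx3cr1, Csf1r and Tmem119 were higher at all 3 times. P2ry12 and Sall1, in contrast, stayed close to their naive level at dpi 2 and dpi 42. The median log2 fold change of the 10 genes was 1.22, 1.84 and 1.09 at dpi 2, 10 and 42, against -0.10, -0.10 and -0.083 over all genes.

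The 3 purine receptor genes parted from each other. P2ry12, the ADP receptor of resting processes, had 35.5, 27.7 and 26.0 CPM in naive total RNA, 24.3, 24.2 and 29.8 at dpi 2, 41.1, 47.0 and 40.5 at dpi 10, and 31.5, 25.3 and 26.8 at dpi 42. Its dpi 10 libraries lay above all others, and its dpi 2 and dpi 42 libraries overlapped the naive ones. The log2 fold change against naive was -0.19 ± 0.19 (SE) at dpi 2 (adjusted p = 0.482), 0.53 ± 0.19 at dpi 10 (adjusted p = 0.0398) and -0.093 ± 0.19 at dpi 42 (adjusted p = 0.794). The dpi 10 call was lost without total RNA replicate 2 or 3 of naive tissue or without any of the 3 dpi 10 replicates (log2 fold change 0.44 to 0.57, adjusted p = 0.0607 to 0.157). Med12l, in which P2ry12 lies, was lower at each time (adjusted p = 0.00161, 0.0128 and 0.0245), with 50.1 ± 4.34 CPM in naive total RNA against 19.9 ± 4.58, 24.5 ± 3.57 and 25.4 ± 5.42 CPM.

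P2ry13, another ADP receptor gene, had 14.3, 10.8 and 11.6 CPM in naive tissue, 16.2, 19.4 and 20.98 at dpi 2, 27.8, 38.1 and 31.8 at dpi 10, and 22.2, 28.8 and 27.9 at dpi 42. All libraries of each SCI group lay above the naive ones. The fitted changes of 0.62 ± 0.63, 1.41 ± 0.64 and 1.10 ± 0.63 did not pass (adjusted p = 0.475, 0.0989 and 0.235), though the dpi 10 value did without OL replicate 2 of dpi 42 (1.53, adjusted p = 0.0155). In these fits the spread was shared with OL libraries in which P2ry13 had few counts, and in a fit of the 12 total RNA libraries alone, chosen after seeing the data, it was higher at each time (0.79, 1.55 and 1.22, adjusted p = 0.000379, 2.55e-07 and 7.77e-06).

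P2ry6, a UDP receptor gene linked to phagocytosis and shared with macrophages, rose most. It had 3.05, 2.00 and 1.27 CPM in naive tissue, 30.2, 38.1 and 28.4 at dpi 2, 34.97, 46.7 and 37.5 at dpi 10, and 24.7, 34.7 and 25.2 at dpi 42. The groups were far apart at each time, with a fold change of 15.3, 18.8 and 13.4 (log2 3.94 ± 0.46, 4.24 ± 0.46 and 3.74 ± 0.45, adjusted p = 8.97e-07, 5.84e-07 and 4.38e-06).

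Cx3cr1 and Csf1r were the most abundant of the 10 genes at dpi 10 and moved alike. Cx3cr1 had 59.1, 53.1 and 51.2 CPM in naive tissue, 159, 166 and 191 at dpi 2, 272, 328 and 258 at dpi 10, and 182, 232 and 232 at dpi 42, a rise of 3.16-fold, 5.25-fold and 3.96-fold (adjusted p = 5.46e-07, 7.12e-09 and 1.5e-07). Csf1r had 105, 91.3 and 94.6 CPM in naive tissue, 240, 239 and 268 at dpi 2, 467, 574 and 449 at dpi 10, and 308, 403 and 402 at dpi 42, a rise of 2.57-fold, 5.12-fold and 3.83-fold (adjusted p = 6.78e-05, 1.97e-07 and 4.03e-06). Neither gene had an SCI library at or below a naive one. Hmgxb3, which shares exon bases with Csf1r, had 37.7 ± 1.46 CPM in naive tissue and 22.1 ± 2.43, 27.4 ± 2.13 and 29.7 ± 2.01 at dpi 2, 10 and 42.

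Gpr34, a receptor gene for lysophosphatidylserine, was tight within groups, with 9.87, 9.93 and 10.1 CPM in naive tissue, 20.6, 23.6 and 19.4 at dpi 2, 38.8, 39.9 and 39.9 at dpi 10, and 18.5, 19.9 and 24.4 at dpi 42. All SCI libraries lay above the naive ones. The change of 1.99 ± 0.62 at dpi 10 passed (adjusted p = 0.0172), though not when any 1 of the 3 naive total RNA replicates was left out (adjusted p = 0.055 to 0.0575). Those of 1.09 ± 0.61 at dpi 2 and 1.07 ± 0.61 at dpi 42 did not pass (adjusted p = 0.173 and 0.23), though the dpi 2 value did without OL replicate 1 or 3 of dpi 42 (1.23, adjusted p = 0.0293 and 0.0278). Both passed in total RNA libraries alone (1.26 and 1.19, adjusted p = 2.7e-07 and 1.16e-06).

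Tmem119, a surface protein gene used to tell microglia from other macrophages, had 22.8, 22.4 and 20.03 CPM in naive tissue, 60.3, 62.9 and 56.5 at dpi 2, 73.4, 76.0 and 61.1 at dpi 10, and 38.8, 52.7 and 46.9 at dpi 42. It was 2.75-fold, 3.23-fold and 2.12-fold higher than naive (adjusted p = 0.000577, 0.000186 and 0.0117). On dpi 42 the call was lost without total RNA replicate 3 of naive tissue (log2 fold change 1.03, adjusted p = 0.0508) or replicate 2 of dpi 42 (0.98, adjusted p = 0.0531).

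Siglech, a sialic acid binding lectin gene of microglia that plasmacytoid dendritic cells also use, had the lowest dpi 2 level of the 10 genes. It had 10.85, 10.4 and 10.0 CPM in naive tissue, 5.37, 4.58 and 4.87 at dpi 2, 10.95, 15.3 and 17.7 at dpi 10, and 14.2, 16.4 and 15.1 at dpi 42. The dpi 2 libraries lay below every library of the other 3 groups, and those of dpi 10 and dpi 42 above the naive ones. The changes of -1.08 ± 0.56, 0.49 ± 0.55 and 0.55 ± 0.55 did not pass (adjusted p = 0.142, 0.553 and 0.535). Fitted in total RNA libraries alone, Siglech fell by 0.91 on the log2 scale at dpi 2 (adjusted p = 0.000352) and was higher at dpi 10 (0.63, adjusted p = 0.00669) and dpi 42 (0.66, adjusted p = 0.00629).

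Sall1, the transcription factor gene that sets microglia apart from other macrophages, had 64.0, 57.7 and 50.2 CPM in naive tissue, 56.9, 52.3 and 62.5 at dpi 2, 67.1, 73.7 and 66.5 at dpi 10, and 53.5, 64.6 and 67.4 at dpi 42. Its dpi 2 and dpi 42 libraries overlapped the naive ones. The log2 fold changes were -0.0013 ± 0.17, 0.27 ± 0.17 and 0.11 ± 0.17 (adjusted p = 1, 0.251 and 0.711), and in the fit of total RNA libraries alone the dpi 10 value was 0.41 (adjusted p = 0.00512).

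Olfml3, a secreted matrix protein gene, was the only 1 of the 10 with its highest mean at dpi 2. It had 30.3, 21.3 and 18.2 CPM in naive tissue, 224, 274 and 256 at dpi 2, 180, 212 and 183 at dpi 10, and 108, 148 and 144 at dpi 42. The groups did not overlap, and the fold change against naive was 10.8, 8.25 and 5.75 (adjusted p = 6.79e-07, 3.57e-06 and 4.91e-05).

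**Figure D1:**
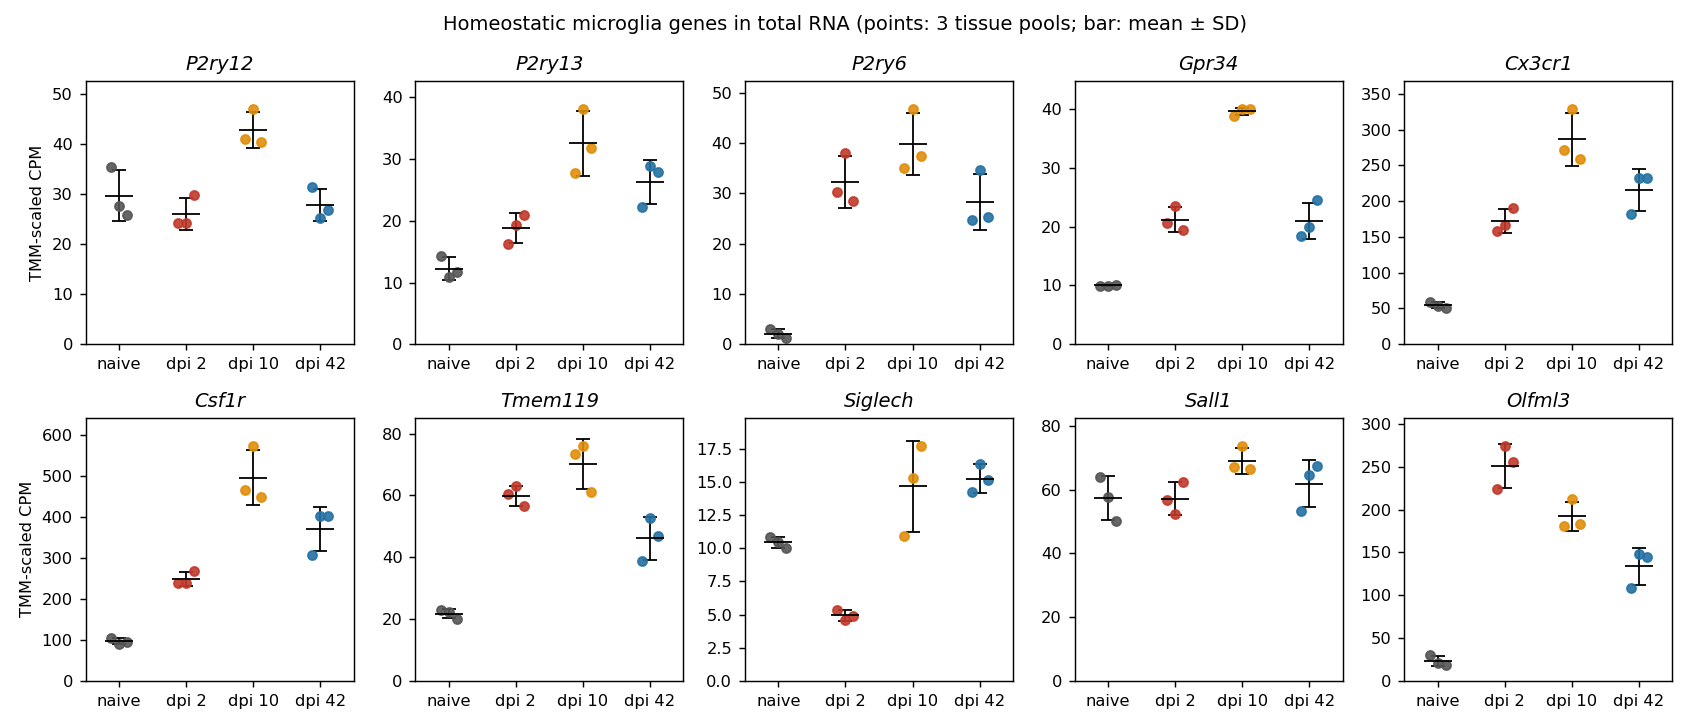
TMM-scaled CPM in total RNA (vertical axes from 0, each with its own scale) of the 10 genes in naive tissue and at dpi 2, 10 and 42, with 3 tissue pools per group as points and mean ± SD as bars. P2ry6 goes from 2.11 ± 0.895 to 39.7 ± 6.17 CPM at dpi 10, whereas Sall1 is at 57.3 ± 6.91 and 69.1 ± 4.03.

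**Figure D2:**
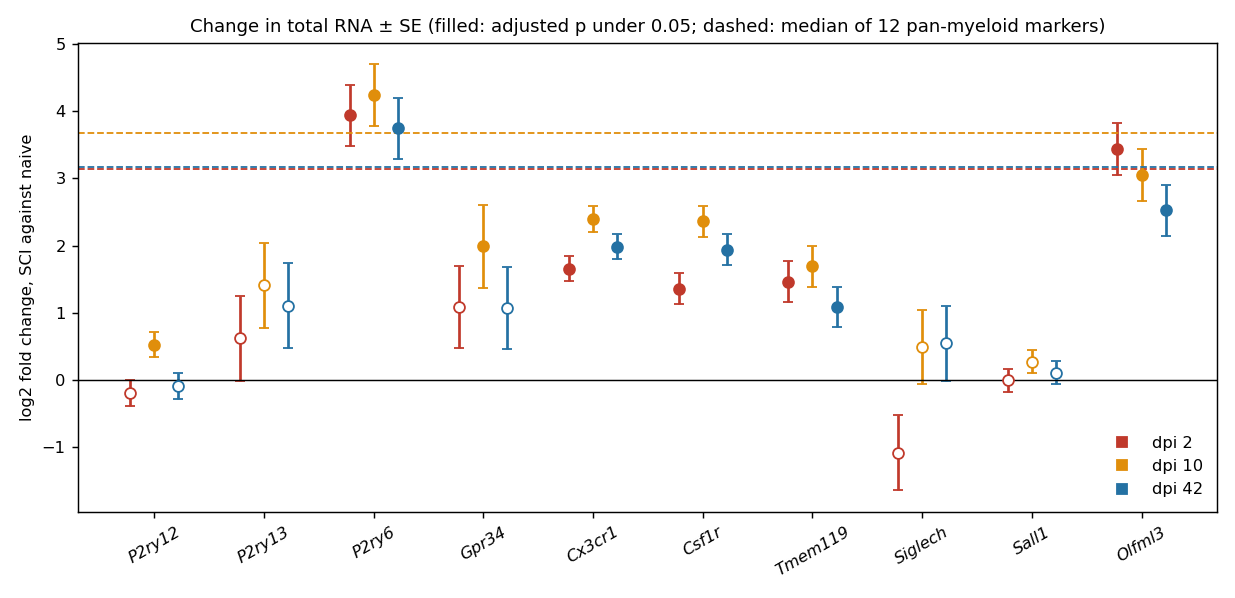
Log2 fold change against naive in total RNA ± SE for each gene at dpi 2, 10 and 42, filled where the adjusted p of edgeR is under 0.05. Dashed lines give the median of 12 pan-myeloid markers, 3.13, 3.68 and 3.16, which only P2ry6 exceeds at all 3 times.

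In that fit of total RNA libraries alone the counts were 7 higher and 1 lower at dpi 2 (27.5% and 23.2% of all genes), 10 higher at dpi 10 (23.6%) and 8 higher at dpi 42 (20.2%). A fit of only the 2 groups compared, planned as an alternative, called the same genes (26.1% of all genes higher and 26.1% lower at dpi 2, 27.9% higher at dpi 10 and 20.1% at dpi 42). Counts of libraries gave a similar picture without a model. The 3 dpi 2 libraries lay above all 3 naive ones for 7 of the 10 genes (24.7% of all genes), those of dpi 10 for 10 (24.5%) and those of dpi 42 for 8 (20.2%).

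Between dpi 2 and dpi 10, P2ry12 (0.72 ± 0.19, adjusted p = 0.023), Cx3cr1 (0.74 ± 0.18, adjusted p = 0.0124) and Csf1r (1.00 ± 0.23, adjusted p = 0.00692) rose in total RNA, 3 of the 10 genes against 3.31% of all genes called higher, and 0 fell (4.53%). Without pool 2 of dpi 2, P2ry12 (adjusted p = 0.0864) and Cx3cr1 (adjusted p = 0.0586) no longer passed. The call of P2ry12 was also lost without total RNA replicate 1 of dpi 2 (adjusted p = 0.0857) or without replicate 1 (adjusted p = 0.0564) or 2 (adjusted p = 0.106) of dpi 10, and that of Cx3cr1 without replicate 1 of dpi 2 (adjusted p = 0.0552) or replicate 2 of dpi 10 (adjusted p = 0.0789). With total RNA libraries alone 6 genes rose, Siglech by 1.54 (adjusted p = 9.06e-06), Gpr34 by 0.87 (adjusted p = 8.67e-05) and P2ry13 by 0.76 (adjusted p = 0.00178) being added, against 9.97% of all genes. Siglech also rose with DESeq2 (1.59, adjusted p = 0.0255), which called 5.24% of all genes higher. Between dpi 10 and dpi 42 edgeR called 0 of the 10 genes in either direction (0.0583% of all genes higher and 0.204% lower), with 2 under 0.05 before adjustment (P2ry12, -0.62, and Cx3cr1, -0.41). DESeq2 called P2ry12 lower (-0.64, adjusted p = 0.0473, 0.915% of all genes). Total RNA libraries alone gave 6 genes that were lower at dpi 42 than at dpi 10 (3.79% of all genes), P2ry12 (-0.65, adjusted p = 0.0105), Gpr34 (-0.94, adjusted p = 0.000486), Cx3cr1 (-0.43, adjusted p = 0.0319), Csf1r (-0.45, adjusted p = 0.0291), Tmem119 (-0.63, adjusted p = 0.00527) and Olfml3 (-0.55, adjusted p = 0.0388).

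The 10 genes were also set against the myeloid signal of the same library, which itself rose. The 12 pan-myeloid markers, which microglia and other myeloid cells share, summed to 168 to 241 CPM in naive total RNA, 1267 to 1477 at dpi 2, 2757 to 3444 at dpi 10 and 1839 to 2454 at dpi 42, and all 12 rose at each time. The lysosomal gene Cd68 rose by 4.89, 5.82 and 5.41 on the log2 scale, the protease gene Ctss by 2.11, 3.74 and 3.37 and Laptm5 by 2.20, 3.38 and 2.98. The log2 CPM of P2ry12 minus the mean log2 CPM of these markers was 1.68 in naive tissue and -1.62, -1.70 and -1.83 at dpi 2, 10 and 42, a difference from naive of -3.31, -3.39 and -3.52. Sall1 went from 2.64 to -0.49, -1.02 and -0.69, and Siglech from 0.19 to -4.00, -3.28 and -2.70. The values of Sall1, which was higher in OL than in total RNA, cannot be read as those of microglia alone. Tmem119 went from 1.25 to -0.419, -0.998 and -1.11. P2ry13 differed from naive by -2.50, -2.53 and -2.34 and Gpr34 by -2.05, -1.95 and -2.38. Cx3cr1 differed by -1.47, -1.54 and -1.46 and Csf1r by -1.77, -1.58 and -1.51. For these 8 genes the 3 SCI libraries lay below the 3 naive ones at each time. Since the markers rose, nearly all genes did the same on this scale. At dpi 2, 10 and 42 the SCI libraries lay below the naive ones for 8, 9 and 9 of the 10 genes, against 92.0%, 95.7% and 94.8% of 17167 genes, and at all 3 times for 90.4% of them. These counts are near the background and are no result about the 10 genes. Their median difference from naive was -1.91, -2.10 and -2.35, against -3.24, -4.03 and -3.53 over all genes.

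P2ry6 and Olfml3 were not below naive at every time. P2ry6 relative to the markers was 0.84 higher at dpi 2 with no overlap, and its 0.34 at dpi 10 and 0.33 at dpi 42 came from overlapping libraries. Under the alternatives these values ran from 0.41 to 1.00, from 0.15 to 0.50 and from 0.14 to 0.49. Olfml3 was 0.33 higher at dpi 2, or -0.096 with the median in place of the mean of the markers, and then -0.86 and -0.89 at dpi 10 and 42. The two-sided exact permutation test of 3 against 3 libraries cannot go below p = 0.1, the value that each difference with no overlap had. The overlapping values of P2ry6 had exact p = 0.2 and 0.3.

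**Figure D3:**
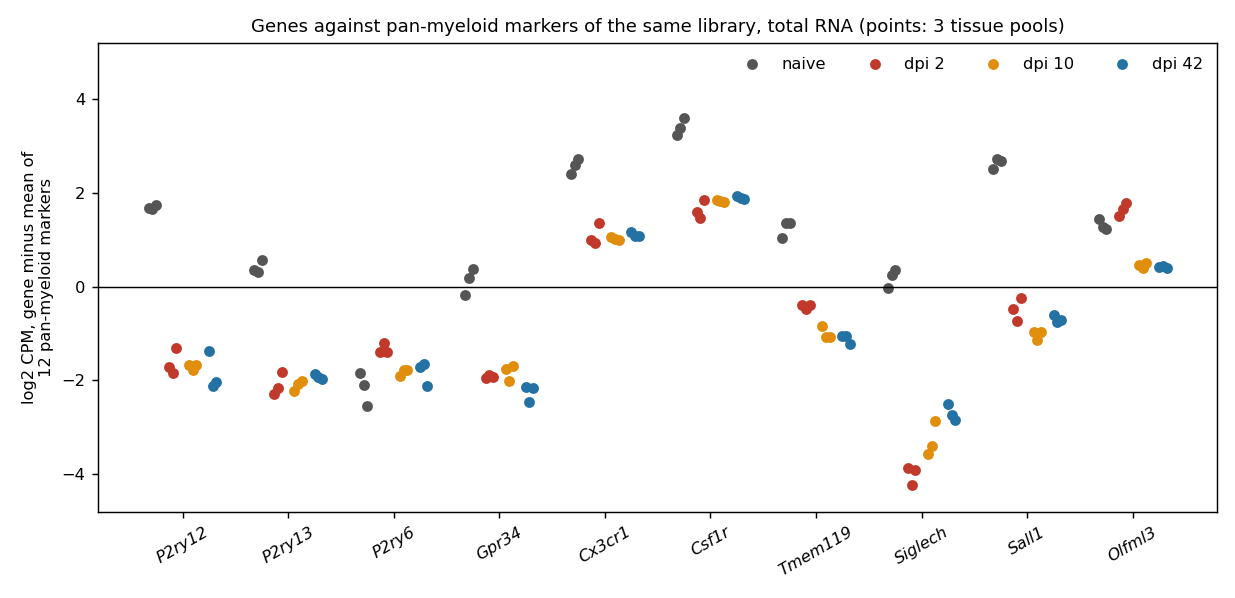
Log2 CPM of each gene minus the mean log2 CPM of 12 pan-myeloid markers of the same total RNA library, with 3 pools per group as points. Naive points lie above all SCI points at each time for 8 genes, P2ry6 and Olfml3 being the exceptions, and 90.4% of all genes tested lie apart in the same way.

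Genes used as markers of infiltrating cells moved in the same libraries. The 12 infiltrating monocyte genes summed to 46.8 to 59.7 CPM in naive total RNA, with 2 of them at 0 counts in all 3 libraries, and to 1514 to 1783 at dpi 2, 709 to 791 at dpi 10 and 523 to 742 at dpi 42. Their median log2 fold change was 5.91, 4.67 and 3.73, and 12, 12 and 8 of them rose. Vim, an intermediate filament gene that reactive astrocytes also use, had 4.84 at dpi 2, Fn1 4.73 and Thbs1 4.00. In OL the 12 infiltrating monocyte genes summed to 581 to 1383 CPM at dpi 2 and 281 to 833 at dpi 42. The 12 pan-myeloid markers in OL summed to 71.5 to 108 CPM and 142 to 204 CPM at these times. Which cells the sums of the monocyte genes came from was not tested. The 10 border macrophage genes, of macrophages at the vessels and meninges, went from 10.5 to 14.98 CPM in sum to 213 to 307 at dpi 2, with 9 of 10 higher at each time and medians of 4.75, 4.10 and 3.53, and F13a1 (5.33), Ms4a7 (6.05) and Stab1 (4.06) had the highest means. The part of these cells in the levels of the 10 genes was not tested.

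Further genes of the resting programme gave a similar range. Of 24, 12, 15 and 12 were higher at dpi 2, 10 and 42 and 1, 1 and 0 lower, with medians of 0.98, 1.64 and 1.29. Sparc (0.21, 0.54 and 0.23) and Cst3 (-0.26, 0.76 and 0.82), which other neural cells use too, did not pass. The gene called lower at dpi 2 and dpi 10 was Bin1, a membrane-shaping protein gene that neural cells also use (-0.39 and -0.36). Of 15 genes of disease-associated microglia, 13, 15 and 14 were higher, with medians of 2.64, 3.73 and 3.27. Among them the lysosomal protease genes Ctsb (1.56, 2.28 and 1.66) and Ctsd (2.58, 3.73 and 3.27) rose at each time, and the lipid carrier gene Apoe was at 0.034 at dpi 2 (adjusted p = 0.974) and rose by 3.26 at dpi 10 and 3.17 at dpi 42.

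Among 16 ligands and regulators of the 10 genes, 12, 10 and 10 were higher at dpi 2, 10 and 42 and 1, 0 and 0 lower. Of the ligands, Cx3cl1, the neuronal ligand of CX3CR1, fell by 1.25 at dpi 2 (273.9 to 115 mean CPM, adjusted p = 0.0145) and had -0.81 at dpi 10 (adjusted p = 0.118) and -0.43 at dpi 42 (adjusted p = 0.475). Csf1 rose by 1.21, 1.24 and 1.19, and Il34, the other CSF1R ligand, had 0.41, 0.70 and 0.86 (adjusted p = 0.446, 0.183 and 0.125). Csf1 was also higher in OL than in total RNA (naive 2.33 ± 0.11, adjusted p = 2.26e-09), with 263 mean CPM in naive OL against 52.2 in naive total RNA.

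TGF-beta is known to maintain the resting programme. Its gene Tgfb1 rose by 2.98, 3.37 and 2.75, the receptor gene Tgfbr2 by 1.82, 2.79 and 2.28, Tgfbr1 by 0.51, 2.04 and 1.63, and Nrros, which presents TGF-beta on microglia, by 2.36, 2.71 and 1.86. Smad3, which carries the signal to the nucleus, rose by 1.02 at dpi 2 and had 0.67 at dpi 10 (adjusted p = 0.137) and 0.47 at dpi 42 (adjusted p = 0.337). The myeloid transcription factor genes Spi1 (3.05, 3.47 and 3.05), Irf8 (3.13, 4.12 and 3.86) and Runx1 (3.98, 4.37 and 3.74) and the adaptor gene Tyrobp (3.11, 4.65 and 4.23) rose at each time.

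Of 2 enzyme genes of extracellular purines, Nt5e, which makes adenosine from AMP, rose by 1.54 at dpi 2 and had 0.24 and 0.16 later (adjusted p = 0.647 and 0.809). Entpd1, which breaks down ATP and the P2RY12 ligand ADP, had 1.05, 1.71 and 1.39 (adjusted p = 0.23, 0.0557 and 0.147). Kcnk13, the potassium channel gene of microglia surveillance, had -0.18, -0.44 and -0.27 (adjusted p = 0.439, 0.057 and 0.295), and in naive tissue it was higher in OL than in total RNA (2.75 ± 0.18, adjusted p = 2.9e-08).

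The comparison of OL with total RNA of the same pool gives each gene's enrichment or depletion in the OL library. It is a ratio of scaled levels and not a share of the gene's RNA. The study found markers of microglia and macrophages, Cx3cr1 among them, raised in OL after SCI though still depleted there. It proposes that some mRNAs in OL are contamination from other cells. A level in OL is thus no proof of translation in OLs. In every condition 9 of the 10 genes were lower in OL and Sall1 was higher (called lower over all genes, 29.1%, 26.9%, 26.4% and 26.8% in naive tissue and at dpi 2, 10 and 42, and called higher, 24.4%, 24.3%, 24.7% and 24.4%). In naive tissue, Cx3cr1 in OL stood at 5.68%, 4.30% and 5.30% of its total RNA level in the 3 pools, Csf1r at 9.52%, 6.25% and 8.90%, and Tmem119 at 11.8%, 4.71% and 5.16%. The log2 fold changes were -4.30 ± 0.20 (SE, adjusted p = 1.78e-09), -3.62 ± 0.22 (adjusted p = 2.03e-08) and -3.87 ± 0.33 (adjusted p = 3.81e-07). P2ry13 (-4.63 ± 0.91), Gpr34 (-4.90 ± 0.82), Siglech (-3.88 ± 0.63), Olfml3 (-3.83 ± 0.39) and P2ry6 (-2.79 ± 0.60) were lower too, P2ry6 from 0.308 ± 0.270 against 2.11 ± 0.895 CPM. That call of P2ry6 was lost in the fit of naive libraries alone (-2.98, adjusted p = 0.0765). The 12 pan-myeloid markers had a median of -3.97 in naive tissue, and the 10 OL markers 2.81.

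P2ry12 was the least depleted of the 9 in naive tissue, at dpi 10 and at dpi 42, whereas at dpi 2 Olfml3 (-2.21 ± 0.34) lay near it. In OL it had 8.66, 8.08 and 7.42 CPM in naive tissue, 7.29, 4.25 and 4.32 at dpi 2, 13.3, 10.7 and 11.2 at dpi 10 and 6.78, 8.33 and 10.3 at dpi 42, which is 24.4%, 29.2% and 28.6% of total RNA in the naive pools and 14.5% to 38.2% in the 9 SCI pools. The log2 fold change was -1.87 ± 0.21, -2.34 ± 0.22, -1.87 ± 0.21 and -1.73 ± 0.21 in the 4 conditions. In the naive pools the percentage of P2ry12 did not overlap that of Cx3cr1, Csf1r, Tmem119, Gpr34, Siglech, P2ry13 or Olfml3, and it did overlap that of P2ry6 (0% to 33.2%), which rests on few counts. Med12l, at 9.81%, 13.8% and 17.1% of total RNA in naive pools, was lower in OL as well (-2.91 ± 0.31).

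**Figure D4:**
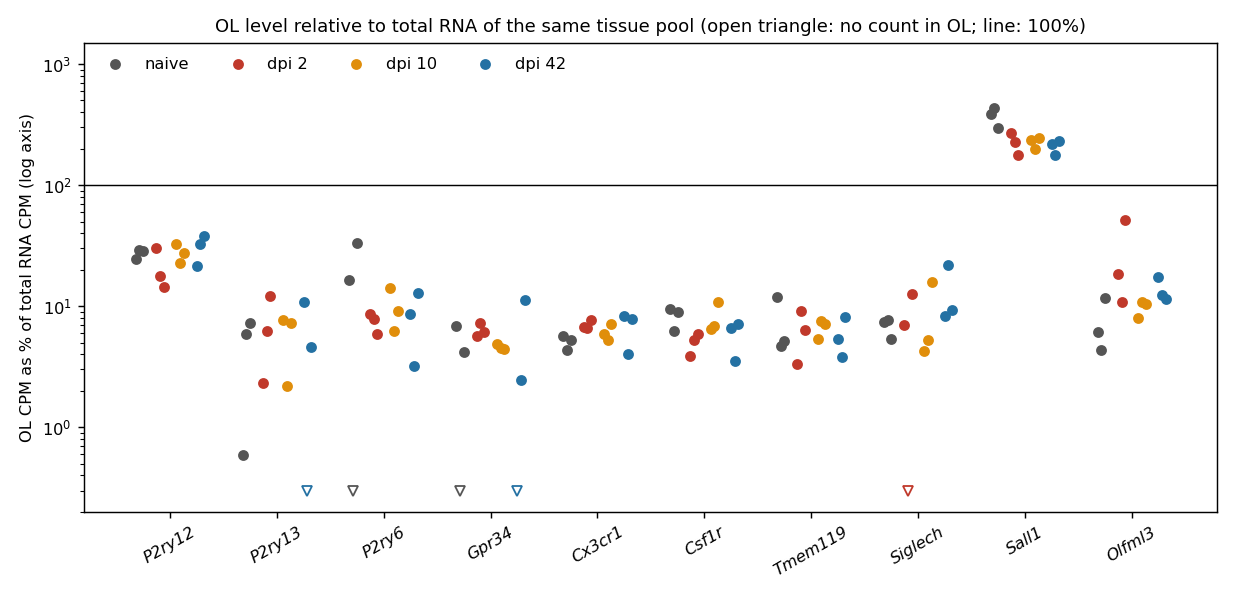
OL level as percent of total RNA of the same tissue pool (log axis), 3 pools per condition, with open triangles for pools with no count in OL. Sall1 lies above the line at 100% in all 12 pools, between 176% and 433%, and the other 9 genes lie below it.

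Sall1 went against the microglial label of the list. In OL it had 246, 250 and 147 CPM in naive tissue, 154, 119 and 110 at dpi 2, 159, 148 and 163 at dpi 10 and 116, 114 and 155 at dpi 42, above the total RNA level of the same pool in all 12 pools. The naive pools held 385%, 433% and 293% of the total RNA level, those of dpi 2 271%, 228% and 176%, those of dpi 10 237%, 200% and 245%, and those of dpi 42 218%, 176% and 229%. The log2 fold change of OL against total RNA was 1.87 ± 0.14 in naive tissue (adjusted p = 9.05e-08), 1.15 ± 0.13 at dpi 2 (adjusted p = 1.07e-05), 1.18 ± 0.13 at dpi 10 (adjusted p = 7.53e-06) and 1.04 ± 0.13 at dpi 42 (adjusted p = 2.23e-05). In OL libraries of every condition the defining genes P2ry12, Tmem119 and Cx3cr1 were far lower than in total RNA.

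The OL enrichment of Sall1 was smaller after SCI than in naive tissue, the only 1 of the 10 genes for which this difference of differences passed. It was -0.72 ± 0.19 at dpi 2 (adjusted p = 0.0225), -0.69 ± 0.19 at dpi 10 (adjusted p = 0.0422) and -0.83 ± 0.19 at dpi 42 (adjusted p = 0.0184), against 5.81%, 3.14% and 3.51% of all genes called lower and 7.50%, 4.49% and 4.34% called higher. Each call was lost without pool 1 or pool 2 of naive tissue (-0.57 to -0.79, adjusted p = 0.0736 to 0.175). Those of dpi 2 and dpi 10 were lost without pool 2 of dpi 2 (adjusted p = 0.0531 and 0.0511), that of dpi 2 in the fit of only those groups (adjusted p = 0.0657), that of dpi 10 with no pool block (adjusted p = 0.0728) or without any 1 pool of dpi 10 (adjusted p = 0.0839 to 0.171), and that of dpi 42 without pool 2 of dpi 42 (adjusted p = 0.0788). Naive OL pool 3, with 147 CPM, overlapped the dpi 2, dpi 10 and dpi 42 pools. This library differed more from naive OL pools 1 and 2 (median chi-square per gene 9.26 and 8.64) than those did from each other (2.90). Sums in naive OL ran from 787 to 5735 CPM for 5 astrocyte markers and from 127054 to 171294 for 10 OL markers. The part of these differences in the Sall1 values was not tested.

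Against naive OL, 5 of the 10 genes were higher and 2 lower at dpi 2 (18.4% and 20% of all genes), 6 higher and 0 lower at dpi 10 (9.62% and 8.59%), and 4 higher and 1 lower at dpi 42 (16.2% and 16.9%). P2ry6, Cx3cr1, Csf1r and Olfml3 were higher at all 3 times, P2ry6 not in the fit of only the 2 groups compared at dpi 2 (3.01, adjusted p = 0.0854) and dpi 42 (2.82, adjusted p = 0.123), nor Csf1r at dpi 2 (0.70, adjusted p = 0.146). Cx3cr1 in OL went from 3.36, 2.28 and 2.72 CPM in naive tissue to 10.6, 10.9 and 14.8 at dpi 2, 16.04, 17.1 and 18.3 at dpi 10 and 14.996, 9.26 and 18.2 at dpi 42, with log2 fold changes of 2.12 ± 0.21, 2.62 ± 0.21 and 2.34 ± 0.21. At the same times the 12 pan-myeloid markers in OL rose from 10.1 to 18.6 CPM in sum to 71.5 to 108, 167 to 208 and 142 to 204, and all 12 passed. Their part in the OL values of the 10 genes was not tested. The differential OL enrichment of Cx3cr1 was 0.46 ± 0.25, 0.24 ± 0.25 and 0.33 ± 0.25 (adjusted p = 0.297, 0.737 and 0.538).

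Sall1 (-0.75 ± 0.17, adjusted p = 0.00146) and P2ry12 (-0.60 ± 0.20, adjusted p = 0.0218) were the 2 genes that fell in OL at dpi 2, and Sall1 fell again at dpi 42 (-0.74 ± 0.17, adjusted p = 0.00198). Fitted in only the 2 groups compared, neither passed at dpi 2 (Sall1 -0.67, adjusted p = 0.054, and P2ry12 -0.54, adjusted p = 0.257), nor Sall1 at dpi 42 (-0.70, adjusted p = 0.0539). P2ry12 also lost its call without pool 2 of dpi 2 (-0.47, adjusted p = 0.112) and without OL replicate 1 of naive tissue (adjusted p = 0.0518) or OL replicate 2 (adjusted p = 0.0779) or 3 (adjusted p = 0.0707) of dpi 2. On dpi 10 Sall1 had -0.45 (adjusted p = 0.0698), or -0.67 (adjusted p = 0.00404) without naive OL replicate 3. P2ry12 at dpi 10 (0.54, adjusted p = 0.063) lay above naive in all OL pools. It passed with DESeq2 (adjusted p = 0.0271), with DESeq2's size factors in edgeR (0.0479) and with library sizes alone (0.0183). Leaving out OL replicate 1 of dpi 2 also gave a call (0.0318). The smaller dpi 2 rises of Csf1r (0.64, adjusted p = 0.0418) and Tmem119 (1.24, adjusted p = 0.00742) were lost without pool 2 of dpi 2 (0.64 and 0.81, adjusted p = 0.086 and 0.0891), as they were without OL replicate 2 or 3 of naive tissue or OL replicate 2 of dpi 2 (adjusted p = 0.0577 to 0.296), and the rise of Csf1r was also lost without OL replicate 3 of dpi 2, any 1 of dpi 10 or replicate 1 of dpi 42 (0.37 to 0.57), and in OL libraries alone (0.68, adjusted p = 0.112). Tmem119 did not pass in OL libraries alone at dpi 2 (1.29, adjusted p = 0.083) or dpi 10 (1.58, adjusted p = 0.083), nor in only the 2 groups compared (adjusted p = 0.154 and 0.0574). Gpr34 at dpi 10 (2.30, adjusted p = 0.0464) had 0 to 0.672 CPM in naive OL and lost its call when any 1 of 18 of the 24 libraries was left out (adjusted p = 0.054 to 0.164) and without pool 2 of dpi 2 (adjusted p = 0.055). It was also lost in OL libraries alone (adjusted p = 0.352), in only the 2 groups compared (adjusted p = 0.168) and with a replicate block (adjusted p = 0.0543). Siglech at dpi 42 (1.53, adjusted p = 0.0653) was enlarged by 1 OL library, with 1.19, 3.58 and 1.41 CPM in the 3 pools, against 0.535 to 0.804 in naive OL. The change was 0.82 (adjusted p = 0.385) without OL replicate 2 of dpi 42. It passed without pool 2 of dpi 2 (adjusted p = 0.0262), with DESeq2 (adjusted p = 0.0188) and with library sizes alone (adjusted p = 0.0471). Tmem119 at dpi 42 (0.73, adjusted p = 0.125) passed without OL replicate 1 of naive tissue (1.28, adjusted p = 0.012). Gpr34 at dpi 42 (1.52, adjusted p = 0.163) had 0, 0.485 and 2.74 CPM in the 3 OL pools. Its change ranged from -0.69 to 2.23 under the alternatives, so that its direction was not stable. P2ry13 at dpi 42 (1.22, adjusted p = 0.259) had 2.38, 0 and 1.29 CPM in OL and ranged from 0.25 to 1.74.

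Olfml3 had the largest rise of the 10 genes in OL at dpi 2 and dpi 42, and at dpi 10 it lay beside P2ry6 (3.56). It went from 1.85, 0.931 and 2.10 CPM in naive OL to 41.0, 29.7 and 132 at dpi 2, 14.3, 23.02 and 18.99 at dpi 10 and 18.8, 18.1 and 16.6 at dpi 42, with log2 fold changes of 5.36 ± 0.45, 3.52 ± 0.44 and 3.45 ± 0.44 (adjusted p = 1.14e-08, 7.3e-06 and 5.61e-06). Without OL replicate 3 of dpi 2 the first of these was 4.37. Pool 3 of dpi 2 stood far above the other 2 of its group, with 51.5% of its total RNA level in OL against 18.4% and 10.8%. The differential OL enrichment at dpi 2 was 1.62 ± 0.51 (adjusted p = 0.0532), 0.796 (adjusted p = 0.19) without pool 3, 2.13 (adjusted p = 0.0129) without pool 2, 2.03 (adjusted p = 0.034) without pool 3 of naive tissue, and 1.65 (adjusted p = 0.00482) with DESeq2, which called 10.5% of all genes higher. On dpi 10 it was 0.45 ± 0.50 (adjusted p = 0.766) and at dpi 42 0.94 ± 0.50 (adjusted p = 0.327).

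**Figure D5:**
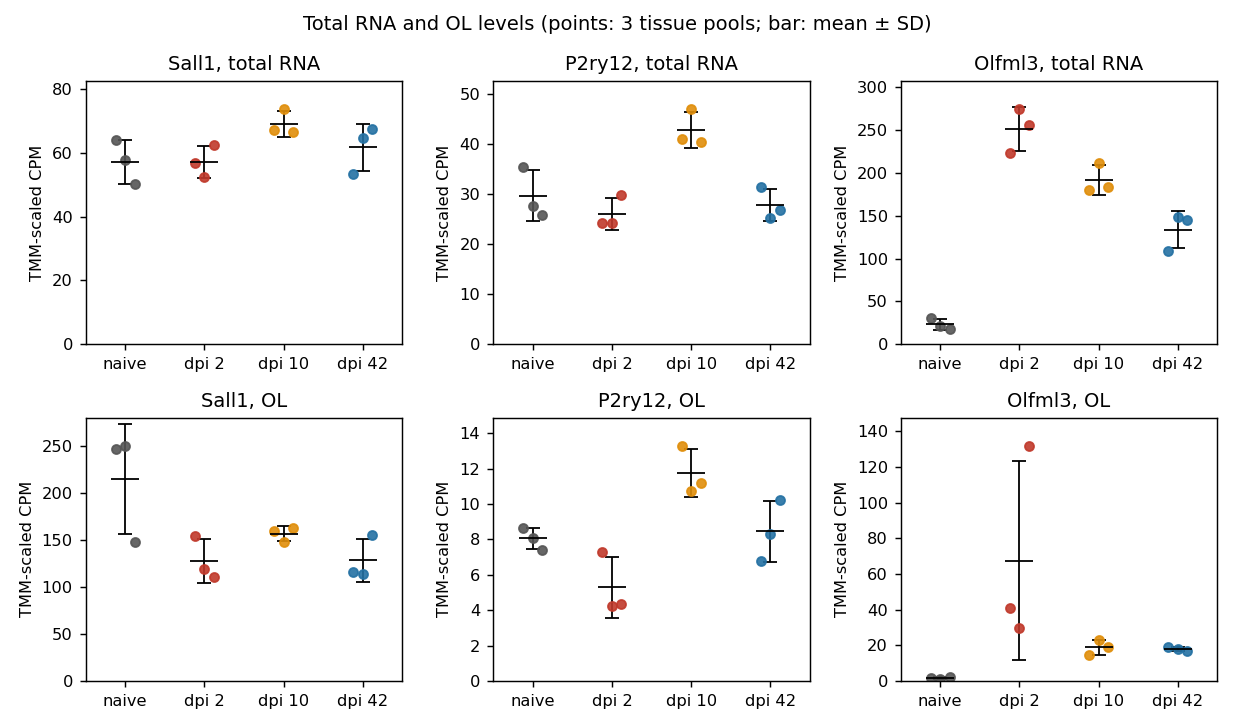
TMM-scaled CPM of Sall1, P2ry12 and Olfml3 in total RNA (upper row) and OL (lower row), axes from 0, with 3 tissue pools per group as points and mean ± SD as bars. OL levels of Sall1 are 214 ± 58.3 CPM in naive tissue and 128 ± 23.3 at dpi 2, and 1 dpi 2 pool carries the Olfml3 mean of 67.5 ± 55.9.

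Across the 12 total RNA libraries, which share the 4 conditions and so are not 12 independent points, the profiles of the 10 genes were compared as a description. The most alike pair was Cx3cr1 and Csf1r (Pearson r = 0.991), followed by P2ry6 with Olfml3 (0.974) and P2ry13 with Csf1r (0.970), and the least alike was Siglech with Olfml3 (-0.203). Against the mean profile of the other 9, Csf1r had r = 0.971 and P2ry13 0.970, P2ry12 0.489 and Siglech 0.242. Among 14454 other genes compared, those most like the mean profile of the 10 were P2rx4, a purine-gated channel gene (r = 0.986), Adap2 (0.985), Tmem86a (0.984), Marcks, an actin-linked protein kinase C substrate gene (0.983), and Tcn2, the vitamin B12 carrier gene (0.983). P2rx4 had 19.6 ± 2.96 CPM in naive total RNA, 39.1 ± 0.974 at dpi 2, 83.1 ± 11.6 at dpi 10 and 60.1 ± 11.2 at dpi 42.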

How the data were processed

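Polyadenylated RNA of 24 spinal cord libraries was sequenced. Per the submitters' processing notes and the study's methods, reads were checked with FastQC 0.10.1, aligned to the mouse genome (mm10) with STAR and counted on genes with HTSeq 0.10.0, and the authors deposited raw read counts without normalization. Strand setting and annotation release are not given in the sources used here. All 24 columns were used.

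The fit took 17167 genes whose counts summed to 10 or more and was made in R 4.3.3 with edgeR 4.0.16 (TMM scaling, quasi-likelihood test, Benjamini-Hochberg adjustment, call at adjusted p under 0.05). Changes used 1 mean for each of 8 groups, and OL enrichment used tissue pool as a block. OL and total libraries of a pool come from the same homogenate. Their deviations from group means correlated with r of 0.041 to 0.137 in naive tissue, 0.088 to 0.108 on dpi 2, 0.024 to 0.063 on dpi 10 and -0.011 to 0.020 on dpi 42. Values relative to myeloid markers are log2 CPM with a prior count of 2. Scripts were tested on simulated data. Alternatives were the DESeq2 1.42.0 test and size factors, library sizes alone, other filters, blocks, fewer groups and each replicate left out. No pair of replicates was as alike as counting error alone would give.

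The 10 genes and the other lists were chosen with earlier results of these data known. Of the myeloid lists, the 3 genes with the highest mean CPM in total RNA are named (all of the ligands and regulators), and 5 genes most like the mean profile of the 10. Some items that this rule would name are not reported here. Markers of neutrophils, T and B cells, neurons, astrocytes, endothelial and Schwann cells were read as checks. In total RNA on dpi 2, 4 of 8, 0 of 8, 0 of 6, 0 of 5, 3 of 5 and 2 of 5 of them were higher, and 6 of 6 neuron and 1 of 5 astrocyte markers were lower. On dpi 10 and dpi 42, 6 and 5 of 6 neuron markers were lower, and 2 and 3 of 5 Schwann cell markers were higher. In OL, 1, 3 and 2 of 5 Schwann cell markers were higher on dpi 2, 10 and 42, and 3, 1 and 2 of 5 endothelial markers. Their part in the values of the 10 genes was not tested. Coordinates are from GENCODE M21.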

Additional observations from a re-analysis of the deposited data

Results flagged for a closer look

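The OL enrichment of Sall1 differed between naive and injured tissue by a test of the difference itself (the interaction in edgeR's quasi-likelihood fit with tissue pool as a block). The difference was -0.72 ± 0.19 (SE) on dpi 2, -0.69 ± 0.19 on dpi 10 and -0.83 ± 0.19 on dpi 42, with lower OL to total RNA ratios in all 3 pools of each time than in the naive pools. Each call was lost without pool 1 or pool 2 of naive tissue (adjusted p = 0.0736 to 0.175).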

How the results depend on the processing

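Under the alternatives, 4034 of 4190 recomputed log2 fold changes of the 10 genes kept their side of the threshold, 88 lost a call, 68 gained one and 0 passed in the opposite direction, and 85 uncalled values changed sign. No count of calls changed by over 1.5 times with DESeq2's size factors in edgeR, another filter on low counts, no filter, or without the 2 libraries of conflicting labels. Against TMM, library sizes alone moved the median of all genes by 0.20, 0.16 and 0.11 in total RNA on dpi 2, 10 and 42 and by -0.51, -0.57, -0.58 and -0.50 in OL enrichment. Of 270 recomputed values relative to pan-myeloid markers, 19 moved by over 1 SD and 1 changed sign.

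In the fit of libraries of 1 kind of RNA (chosen after seeing the data), the counts were 1 lower in total RNA on dpi 2, 8 higher on dpi 42, 6 higher between dpi 2 and dpi 10, 6 lower between dpi 10 and dpi 42, and 3 higher and 1 lower in OL on dpi 2. In the fit of only the groups compared they were 1, 8, 6 and 6 for the same 4 in total RNA, 1 lower between dpi 2 and dpi 10, 2 higher and 0 lower in OL on dpi 2, 0 lower in OL on dpi 42 and 0 lower for the differential enrichment on dpi 2. The cause was not tested. With library sizes alone 1 gene was lower in OL on dpi 2. With DESeq2, 1 was lower between dpi 10 and dpi 42 and 1 had a higher differential enrichment on dpi 2. Without pool 2 of dpi 2 there was 1 higher between dpi 2 and dpi 10, 3 higher and 1 lower in OL on dpi 2, and for differential enrichment 1 higher and 0 lower on dpi 2 and 0 lower on dpi 10.

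Leaving out 1 replicate at a time gave 1 to 4 genes higher between dpi 2 and dpi 10, 3 to 6 higher and 1 to 2 lower in OL on dpi 2, and 0 to 1 lower in OL on dpi 10. For differential enrichment it gave 0 to 1 higher on dpi 2 and 0 to 1 lower on dpi 2, dpi 10 and dpi 42. Calls gained in this way were Sall1 on dpi 10 in total RNA (0.39) and, lower, in OL (-0.67) without OL naive replicate 3, Olfml3 for differential enrichment on dpi 2 without pool 3 of naive tissue (2.03) or pool 2 of dpi 2 (2.13), P2ry12 in OL on dpi 10 without OL dpi 2 replicate 1 (0.54), Siglech in total RNA between dpi 2 and dpi 10 (1.54) and in OL on dpi 42 (1.47) without OL dpi 2 replicate 2, the latter also without OL dpi 10 replicate 3 (1.47), P2ry13 in OL on dpi 10 and dpi 42 without OL dpi 42 replicate 2 (1.74 and 1.74), P2ry13 in total RNA on dpi 10 without that library (1.53), and Gpr34 in total RNA (1.23) and in OL (1.81) on dpi 2 without OL dpi 42 replicate 1 or 3 and in OL on dpi 42 without replicate 1 (2.09), and Tmem119 in OL on dpi 42 without OL naive replicate 1 (1.28).

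A replicate block over conditions, whose numbers are shared only in name (r of -0.309 to 0.248 with naive libraries of the same number), gave 5, 7 and 5 genes higher in total RNA and 5, 5 and 4 higher in OL. With no replicate block for tissue pool, differential enrichment gave 1 higher on dpi 2 (Olfml3, 1.93) and 0 lower on dpi 10.

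At this depth, Siglech, P2ry13, P2ry6 and Gpr34 had 0 counts in at least 1 OL library, so OL changes of those 4 genes rest on few reads, and intervals cover no more than these 3 pools per group.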
